A study of Mus musculus with 18 samples.

Results

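The genes described here are 10 genes of the NRF2 pathway and of the enzymes that detoxify electrophiles, out of 55487 genes in a table of read counts. They are Nfe2l2, Keap1, Nqo1, Ptgr1, Aox1, Gsta4, Gsta1, Gstm1, Srxn1 and Hmox1. They were chosen by gene name, and the choice took in genes already known from these libraries to be higher 12 h after a change of serum, so that every value of these genes at 12 h against the medium that was left is given below as a description, without a test. No numeric threshold entered the choice. All 10 were among the 15381 genes that passed the filter on low counts.

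RNA was sequenced from MEFs (mouse embryonic fibroblasts), a cultured line of wild-type genotype, in 6 groups of 3 libraries. Scm is complete medium made with a fetal bovine serum in which cells were sensitive to ferroptosis, an iron-dependent death driven by lipid peroxidation, and Rcm is complete medium made with a serum that gave resistance. Cells were kept in Scm or in Rcm, were moved from Scm to Rcm (S-Rcm) or were moved from Rcm to Scm (R-Scm), and the moved cells were collected after 12 h or 24 h. The titles give 0 h for the groups kept in Scm or in Rcm. The groups differ in serum, in exchange and in time, and no agent that starts ferroptosis is named for any of them. No group had its medium renewed with the same serum. In each comparison with the medium left, the new serum, fresh medium and time in culture therefore cannot be told apart. The labels do not say whether the libraries of a group came from separate cultures, so that p values measure the spread between these libraries.

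Total counts were 14534906 to 20313715 per library. Expression is given as CPM, the count scaled to a common library size after edgeR's TMM normalization. All 10 fibroblast markers that were looked up were present, with a sum of 8290 to 11700 CPM per library. The sums were 0.137 to 1.23 CPM for epithelial, 2.27 to 5.33 CPM for haematopoietic and 0.139 to 3.43 CPM for endothelial markers, and the macrophage marker Adgre1 was at 0. The sum of the fibroblast markers was 8290 to 8800 CPM in R-Scm 12 h against 10800 to 11100 in Rcm, and 9680 to 11600 in S-Rcm 24 h against 9010 to 9160 in Scm. That of the haematopoietic markers was 3.55 to 5.33 CPM in R-Scm 12 h against 2.49 to 3.39 in Rcm. The part of these differences in the results below was not tested. In bulk RNA, fewer cells that express a gene and less of its RNA per cell cannot be told apart. Genes were called DEGs when the log2 fold change was beyond 0.58 in either direction and the Benjamini-Hochberg adjusted p, over 15381 genes, was under 0.05 in edgeR's quasi-likelihood test. Counts of genes with an unadjusted p under 0.05 are also given below. The share of all genes with such a p was not computed, so that nothing is read from these counts.

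NRF2, the product of Nfe2l2, is a transcription factor that KEAP1 holds in the cytoplasm and hands to the proteasome. Electrophiles and oxidants modify cysteines of KEAP1, NRF2 then accumulates, pairs with a small MAF protein and binds antioxidant response elements in the DNA of its target genes. This control acts largely on the protein, so that the RNA of Nfe2l2 or Keap1 need not follow NRF2 activity. The target enzymes reduce quinones and reactive carbonyls, couple electrophiles to glutathione, degrade haem or repair oxidized peroxiredoxins. Among the electrophiles they remove are 4-hydroxynonenal and other aldehydes that lipid peroxidation releases.

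The alpha-class glutathione transferases need their sequences beside their counts, because reads of near-identical copies can be assigned to either gene. The first 60 coding bases of Gsta1, Gsta2 and Gsta4 are shown from the GENCODE M21 transcripts, with capitals at the bases where a gene differs from Gsta1.
Gsta1: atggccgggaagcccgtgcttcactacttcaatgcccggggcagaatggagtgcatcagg
Gsta2: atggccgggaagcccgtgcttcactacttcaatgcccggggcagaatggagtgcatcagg
Gsta4: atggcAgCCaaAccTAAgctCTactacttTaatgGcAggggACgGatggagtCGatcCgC
Gsta1 and Gsta2 do not differ over this stretch, whereas Gsta4 differs at 19 of the 60 bases. Over the whole transcript of Gsta1 (875 bases), 874 bases align to Gm3776 at 99.5% identity, 870 to Gsta2 at 97.2% and 874 to Gm10639 at 96.6%. Counts of Gsta1 are therefore uncertain as to the copy. Gsta4 had no other transcript with at least 100 aligned bases at 90% identity or more. Gstm1 (828 bases) shares 361 bases with Gstm2-ps1 at 97.5% and 219 bases with Gstm2 at 92.7%, so that part of its counts is open to the same doubt.

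On GRCm38 the genes lie as follows. Gsta4 (chr9:78182774-78209349, plus strand) and Gsta1 (chr9:78230656-78242684, plus strand) lie close together on chromosome 9, and Keap1 (chr9:21229730-21239361, minus strand) lies on the same chromosome. Nfe2l2 (chr2:75675513-75704641, minus strand) and Srxn1 (chr2:152105516-152111376, plus strand) are on chromosome 2. Hmox1 (chr8:75093621-75100589, plus strand) and Nqo1 (chr8:107388225-107403206, minus strand) are on chromosome 8. Aox1 (chr1:58029931-58106413, plus strand), Gstm1 (chr3:108012255-108017973, minus strand) and Ptgr1 (chr4:58965439-58987119, minus strand) are on chromosomes of their own among these genes. Keap1 shares 510 exon bases with the antisense gene Gm16754, and reads of the pair cannot be separated where strand was not used in counting.

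Promoter sequence was available from RefSeq (GRCm38.p6) for 8 of the 10 genes, as 300 bases around the start. An antioxidant response element was searched as TGACNNNGC on both strands, and a stricter MAF-type form as TGANTCAGC, which overlaps the first where its N is C. The first was found in 12.4% of 32851 promoters and in 2 of the 8 genes, the second in 1.19% of promoters and in 1 of the 8. Capitals mark the stricter form in Srxn1, at base -45 from the start, and the first form in Nfe2l2, at base -240. Srxn1 also held the first form at base 29 on the other strand. Nqo1 and Ptgr1, which had much the same pattern over the libraries, held neither form in their 300 bases and are shown beside them.
Srxn1 (chr2:152105424-152105523, plus strand): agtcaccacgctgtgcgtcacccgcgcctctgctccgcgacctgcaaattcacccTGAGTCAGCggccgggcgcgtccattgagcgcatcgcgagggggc
Nfe2l2 (chr2:75704854-75704913, minus strand): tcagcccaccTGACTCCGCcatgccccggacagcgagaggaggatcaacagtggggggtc
Nqo1 (chr8:107403206-107403305, minus strand): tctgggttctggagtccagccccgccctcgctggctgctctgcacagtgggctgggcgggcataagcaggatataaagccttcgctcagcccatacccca
Ptgr1 (chr4:58987079-58987178, minus strand): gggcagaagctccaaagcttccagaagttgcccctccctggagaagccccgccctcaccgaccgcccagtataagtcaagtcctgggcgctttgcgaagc
A match is a description of letters, and the absence of one says only that they are not in this window. The xenobiotic response element core GCGTG was in 32.4% of promoters and in 5 of the 8 genes.

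Nfe2l2 encodes NRF2, and its libraries held 233, 218 and 248 CPM in Scm and 252, 244 and 206 CPM in Rcm. After the change from Scm to Rcm they held 200, 215 and 192 CPM at 12 h and 224, 197 and 206 CPM at 24 h. In the opposite exchange they held 214, 211 and 194 CPM at 12 h and 232, 243 and 198 CPM at 24 h. The 6 group means ran from 203 to 234 CPM, and each group overlapped its neighbour in the order of levels. At 12 h in Rcm, where several of the enzymes below were at their highest, Nfe2l2 was at its lowest mean, and its libraries there lay wholly below those of Scm, with a log2 fold change of -0.20.

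Keap1 encodes the adaptor that presents NRF2 for ubiquitination. Its group means were 97.5 ± 8.92 CPM in Scm (SD, n = 3), 93.5 ± 17.1 in Rcm, 98 ± 12.5 and 95.5 ± 21.1 in S-Rcm at 12 h and 24 h, and 77.6 ± 14.2 and 80.7 ± 21.9 in R-Scm at 12 h and 24 h. Neighbouring groups overlapped throughout. Neither regulator was a DEG in any comparison that was tested.

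Nqo1 encodes a quinone reductase that transfers a pair of electrons to quinones and so avoids semiquinone radicals. It held 134, 149 and 141 CPM in Scm, and 343, 329 and 337 CPM 12 h after the change to Rcm. At 24 h it held 151, 162 and 176 CPM. All S-Rcm 12 h libraries were thus above every other library of the series, 2.38-fold above Scm, and by 24 h the level was near that of Scm. In Rcm it held 160, 172 and 156 CPM, 12 h after the change to Scm 204, 219 and 261 CPM, and at 24 h 139, 122 and 102 CPM. The second exchange thus had a smaller difference at 12 h, 1.40-fold, and libraries below those of Rcm at 24 h.

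Ptgr1 encodes an NADPH-dependent reductase of prostaglandins and of unsaturated aldehydes such as 4-hydroxynonenal. Its libraries held 33, 32.3 and 30.6 CPM in Scm, 78, 69.7 and 82.6 CPM after 12 h in Rcm and 32, 30.8 and 34.1 CPM after 24 h. The difference at 12 h, 2.40-fold, was like that of Nqo1. At 24 h Ptgr1 overlapped Scm, whereas the libraries of Nqo1 were all still above it. In Rcm the libraries held 32, 34.1 and 41.7 CPM, in R-Scm 12 h 49.3, 45.4 and 59.4 CPM, and in R-Scm 24 h 30.3, 22.3 and 23.3 CPM. The libraries at 12 h were all above Rcm (1.43-fold), and those at 24 h were all below it.

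Aox1 encodes an aldehyde oxidase, a molybdenum enzyme that oxidizes aldehydes and N-heterocycles. Its level was low, with 2.94, 2.01 and 3.23 CPM in Scm, 6.79, 5.12 and 4.52 CPM in Rcm and 6.18, 6.61 and 5.85 CPM in S-Rcm 12 h. The mean at S-Rcm 24 h was 3.15 ± 0.284 CPM. R-Scm held 2.24, 2.72 and 1.9 CPM at 12 h and 3.24, 1.2 and 1.99 CPM at 24 h. At 12 h Aox1 was thus higher in cells moved into Rcm, 2.27-fold above Scm, and lower in cells moved into Scm, at 0.421 of Rcm. This set it apart from Nqo1 and Ptgr1, which were above the medium left in both exchanges.

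Gsta4 encodes the alpha-class glutathione transferase best known for conjugating 4-hydroxynonenal. It held 32.8, 38.5 and 35.9 CPM in Scm, 119, 109 and 125 CPM after 12 h in Rcm and 33.8, 38.4 and 41.1 CPM after 24 h. The difference at 12 h was 3.29-fold, and the libraries at 24 h overlapped Scm. It held 38.6, 41.7 and 43.8 CPM in Rcm, 41.5, 42.6 and 39.8 CPM in R-Scm 12 h, and 24.7, 20.6 and 20.1 CPM in R-Scm 24 h. In this exchange, Gsta4 overlapped Rcm at 12 h with a log2 fold change of -0.0037, and its lowest libraries were those at 24 h.

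Gsta1 encodes another alpha-class transferase, and it rests on 5 to 100 counts per library. Its libraries held 1.5, 1.45 and 1.03 CPM in Scm, 4.27, 3.81 and 5.85 CPM after 12 h in Rcm and 0.602, 0.837 and 1.26 CPM after 24 h. They held 0.311, 0.598 and 0.761 CPM in Rcm, 1.31, 1.59 and 1.29 CPM in R-Scm 12 h, and 0.53, 0.315 and 0.407 CPM in R-Scm 24 h. Libraries at 12 h were above those of the medium left in both exchanges, 3.47-fold and 2.46-fold. A sum over Gsta1, Gsta2, Gm10639 and Gm3776 was formed after the values had been seen. It does not depend on how reads were split among these copies, but reads discarded for aligning to several copies would be missing from it. It also leaves out Gm8074, which shares 249 bases with Gsta1 at 94.0% identity. The sum was 2.55 ± 0.676 CPM in Scm, 10.2 ± 0.623 in S-Rcm 12 h, 1.36 ± 0.532 in Rcm and 3.04 ± 0.187 in R-Scm 12 h.

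Gstm1 encodes a mu-class transferase. It held 39.3, 57.8 and 57.2 CPM in Scm, 82, 84.4 and 78.6 CPM in Rcm, 83, 83.9 and 65 CPM in S-Rcm 12 h and 64, 68.3 and 73.1 CPM in S-Rcm 24 h. Its libraries after the change to Rcm were above all Scm libraries at both times. After the change to Scm they held 60, 71.7 and 60.6 CPM at 12 h and 79.1, 39.7 and 41.2 CPM at 24 h. In R-Scm 24 h, replicate 1 stood within the range of Rcm and the other libraries stood far below it.

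Srxn1 encodes sulfiredoxin, which reactivates overoxidized peroxiredoxins. Its libraries held 110, 112 and 110 CPM in Scm, 156, 144 and 152 CPM after 12 h in Rcm and 87.9, 115 and 119 CPM after 24 h. The libraries of S-Rcm 12 h were above all others of the series, by a factor of 1.37 against Scm. In Rcm and in R-Scm at 12 h and 24 h the means were 114 ± 8.17, 119 ± 3.3 and 94.5 ± 8.75 CPM.

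Hmox1 encodes haem oxygenase, which opens haem and frees its iron. It held 91, 88.9 and 89.8 CPM in Scm, 92, 88.2 and 97.7 CPM after 12 h in Rcm and 81.6, 106 and 104 CPM after 24 h. These 3 groups overlapped, and Hmox1 was level (log2 0.044) where Nqo1, Ptgr1 and Gsta4 were at their highest. It held 104, 102 and 113 CPM in Rcm, 77.6, 65.4 and 141 CPM in R-Scm 12 h and 71.9, 62.3 and 66.8 CPM in R-Scm 24 h. R-Scm 12 h thus held the highest library of the series, replicate 3, beside a pair below every library of Rcm.

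**Figure D1:**
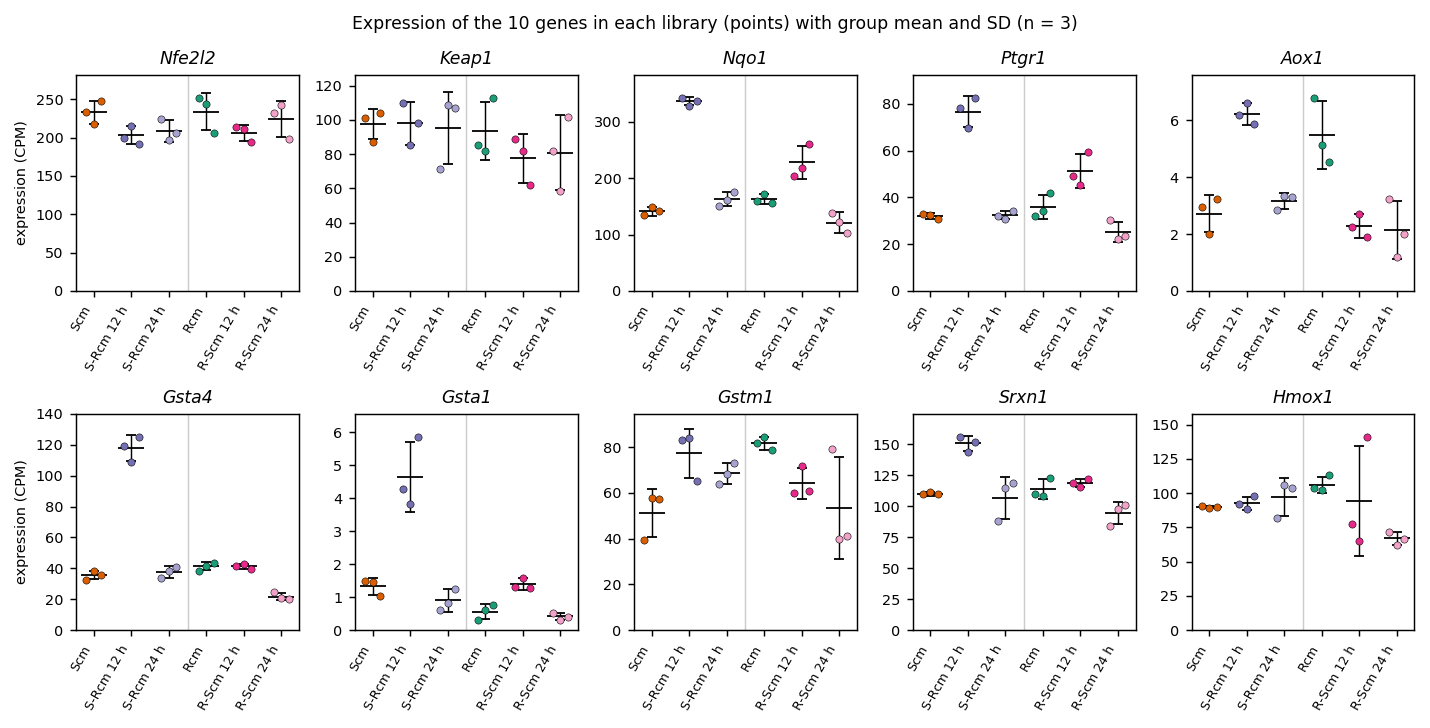
Expression in CPM (linear axis from 0) of each of the 10 genes by group, with 1 point per library, a black bar for the group mean and whiskers for the SD (n = 3). Nqo1, Ptgr1, Gsta4, Gsta1 and Srxn1 are highest in S-Rcm 12 h, whereas Nfe2l2 and Keap1 overlap between neighbouring groups.

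Levels of different genes can be compared only per length. As CPM per kilobase of exon in Scm, the order was Nqo1 (91), Nfe2l2 (61.3), Hmox1 (51.3), Srxn1 (39.2), Gstm1 (34.9), Gsta4 (28.2), Keap1 (20.8), Ptgr1 (13.9), Gsta1 (1.39) and Aox1 (0.314). In S-Rcm 12 h the level of Nqo1 was 217 and that of Gsta4 was 92.9 on the same scale, above the 53.4 of Nfe2l2. The alpha-class gene with the known activity on 4-hydroxynonenal was thus the more abundant of the pair Gsta4 and Gsta1 in both groups.

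As a description of S-Rcm 12 h against Scm, 9 of the 10 genes had a positive log2 fold change, with a median of 0.89 against 0.019 for all genes tested. The libraries of the groups did not overlap for 8 genes, 7 of them higher in S-Rcm 12 h and 1, Nfe2l2, lower, beside 26.4% of all genes tested, and nothing is read from this count because the choice of genes used this contrast. In R-Scm 12 h against Rcm the median was -0.087 against -0.0077 for all genes. There the libraries did not overlap for 5 genes, beside 23.4% of all genes. They were Gsta1, Ptgr1 and Nqo1, with higher libraries, and Aox1 and Gstm1, with lower ones.

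**Figure D2:**
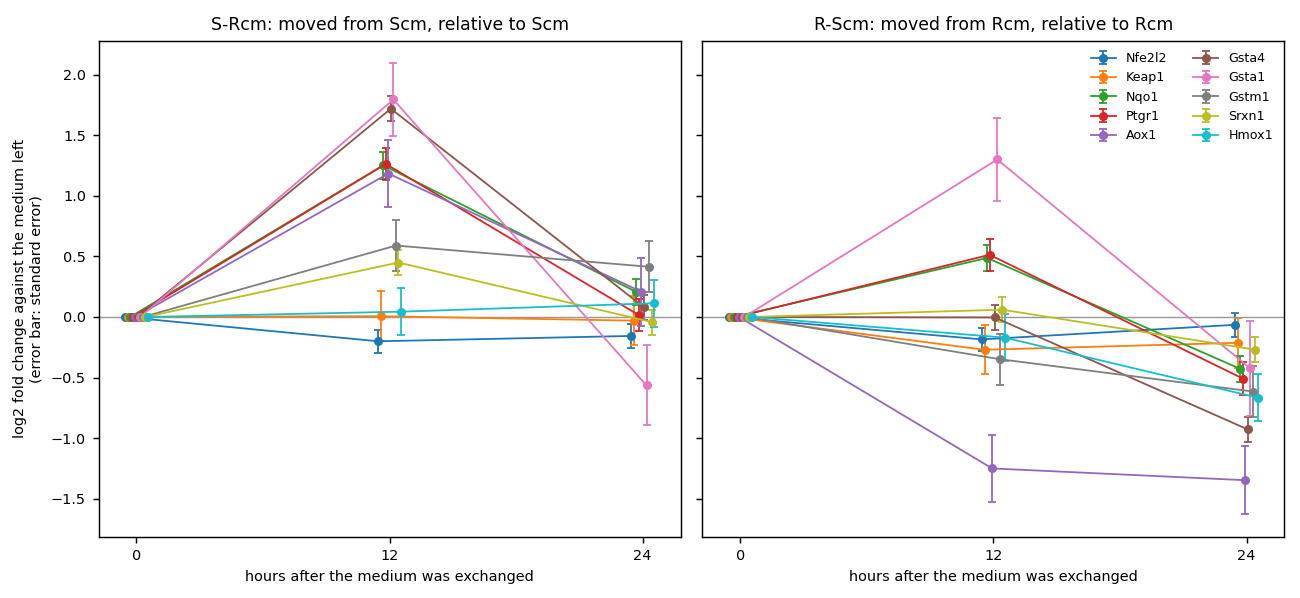
Log2 fold change of each gene against the medium that was left, at 12 h and 24 h, for cells moved from Scm to Rcm (left) and from Rcm to Scm (right), with the standard error as whiskers and the medium left set to 0. In S-Rcm, Gsta1 and Gsta4 reach 1.80 and 1.72 at 12 h and -0.57 and 0.079 at 24 h. In R-Scm, all 10 genes are below 0 at 24 h.

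Steady culture was compared next, to ask whether the serum itself went with another level of these genes. Both groups are also the media left in the comparisons at 12 h that entered the choice of genes. Between Rcm and Scm, 0 of the 10 genes were DEGs in edgeR's test, beside 2.3% of all genes, and 3 had an unadjusted p under 0.05. With DESeq2, 1 was a DEG. The largest differences were those of Aox1, higher in Rcm with 5.48 ± 1.18 against 2.72 ± 0.637 CPM (SD, n = 3, edgeR adjusted p = 0.0653), Gsta1, lower by a log2 fold change of -1.23 (SE 0.348, adjusted p = 0.0733), and Gstm1, higher by 0.67 (SE 0.213, adjusted p = 0.118). The libraries did not overlap for 6 of the 10 genes, 5 of them higher in Rcm, beside 23.9% of all genes, and 12.8% that were higher. Log2 fold changes of Hmox1, Gsta4, Nqo1 and Ptgr1 lay between 0.17 and 0.24, and that of Nfe2l2 was 0.0095 with an SE of 0.0968. Without Rcm replicate 3, Gsta1 (log2 -1.56, adjusted p = 0.0407) and Aox1 (1.11, adjusted p = 0.0466) were DEGs, while the DEGs over all genes rose from 354 to 574. Without R-Scm 24 h replicate 1, which adds only to the estimate of the spread here, Gstm1 (0.67, adjusted p = 0.00888) and Aox1 (adjusted p = 0.0171) were, and without R-Scm 24 h replicate 2 Aox1 was (adjusted p = 0.0258).

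After 24 h in Scm, Gsta4 and Aox1 of cells moved from Rcm had fallen below the level of Rcm. They were DEGs, 2 of the 10 genes, beside 0.377% of all genes, and 0.195% that were lower DEGs. Gsta4 fell by 0.93 on the log2 scale (SE 0.105, adjusted p = 0.00086), from 41.4 ± 2.61 to 21.8 ± 2.52 CPM (SD, n = 3). Aox1 fell by 1.35 (SE 0.279, adjusted p = 0.0455), from 5.48 ± 1.18 to 2.14 ± 1.03 CPM. This comparison shares the Rcm libraries with the one at 12 h that entered the choice of genes.

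The other 8 genes had log2 fold changes below 0 that missed the threshold. They were -0.67 for Hmox1 (SE 0.195, adjusted p = 0.166), -0.62 for Gstm1 (SE 0.212, adjusted p = 0.266), -0.51 for Ptgr1 (SE 0.133, adjusted p = 0.115) and -0.43 for Nqo1 (SE 0.110, adjusted p = 0.105). For Gsta1, Srxn1, Keap1 and Nfe2l2 they were -0.42, -0.27, -0.21 and -0.064. Over the 10 genes the median was -0.47, against -0.0013 for all genes. An unadjusted p under 0.05 was held by 7, a count without the share of all genes beside it. The libraries of R-Scm 24 h lay wholly below those of Rcm for 6 genes, beside 5.64% of all genes, and 11.2% that did not overlap in either direction.

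Single libraries bore on these values, and over all genes the DEGs rose from 58 to 501 without R-Scm 24 h replicate 1. Without R-Scm 24 h replicate 1, Gstm1 (log2 -1.01, adjusted p = 0.00141) and Ptgr1 (log2 -0.66, adjusted p = 0.00915) were DEGs as well, and without R-Scm 12 h replicate 3, which stood alone for Hmox1 and is not in the comparison but adds to the estimate of the spread, Hmox1 was a DEG (log2 -0.67, adjusted p = 0.00742). The call of Aox1 was lost in 14 of the 18 fits that left out a library, with adjusted p from 0.0537 to 0.203. Gsta4 was a DEG in each of these 18 fits, and it missed the threshold in a fit of the 6 libraries compared alone (log2 -0.93, adjusted p = 0.172).

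In cells moved from Scm to Rcm, at 24 h, 0 of the 10 genes were DEGs in edgeR's test, beside 0.338% of all genes, 0 had an unadjusted p under 0.05 and DESeq2 called 0. The log2 fold changes ran from -0.57 for Gsta1 to 0.41 for Gstm1, with a median of 0.047. Gstm1 and Nqo1 (log2 0.21) had libraries wholly above Scm, beside 10.6% of all genes, and 19.5% that did not overlap in either direction. The levels of Nqo1, Ptgr1, Gsta4 and Gsta1 seen at 12 h were thus not seen at 24 h. The Scm libraries are shared with the comparison at 12 h, and the choice took in genes that were higher at 12 h. The difference between the times is therefore a description and was not tested.

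The exchanged groups were then compared with each other at 24 h. This comparison uses no library of the contrasts at 12 h, other than for the estimate of the spread. Gsta4 was lower in R-Scm 24 h than in S-Rcm 24 h, with 24.7, 20.6 and 20.1 CPM against 33.8, 38.4 and 41.1 CPM, a log2 fold change of -0.79 (SE 0.105, adjusted p = 0.0115). It was the only DEG among the 10 genes, beside 0.065% of all genes, which is 10 genes, and 0.0455% that were lower. The call was lost in the fit of these 6 libraries alone (adjusted p = 0.357) and without S-Rcm 24 h replicate 3 (log2 -0.73, adjusted p = 0.0893), R-Scm 24 h replicate 2 (log2 -0.76, adjusted p = 0.0521) or R-Scm 24 h replicate 3 (log2 -0.72, adjusted p = 0.0674).

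Of the other genes, Gsta1 (log2 -1.09, adjusted p = 0.414), Aox1 (-0.56, adjusted p = 0.657), Hmox1 (-0.54, adjusted p = 0.450) and Nqo1 (-0.43, adjusted p = 0.295) had the largest differences between the exchanges at 24 h. The sign was negative for 9 of the 10 genes, with a median of -0.40 against -0.0015 for all genes, and 5 had an unadjusted p under 0.05. For 5 genes the libraries of R-Scm 24 h lay wholly below those of S-Rcm 24 h, beside 5.49% of all genes, and 10.4% that did not overlap in either direction. They were Gsta4, Gsta1, Hmox1, Nqo1 and Ptgr1. Without R-Scm 24 h replicate 1, Gstm1 was a DEG too (log2 -0.76, adjusted p = 0.027), while the DEGs over all genes rose from 10 to 125.

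**Figure D3:**
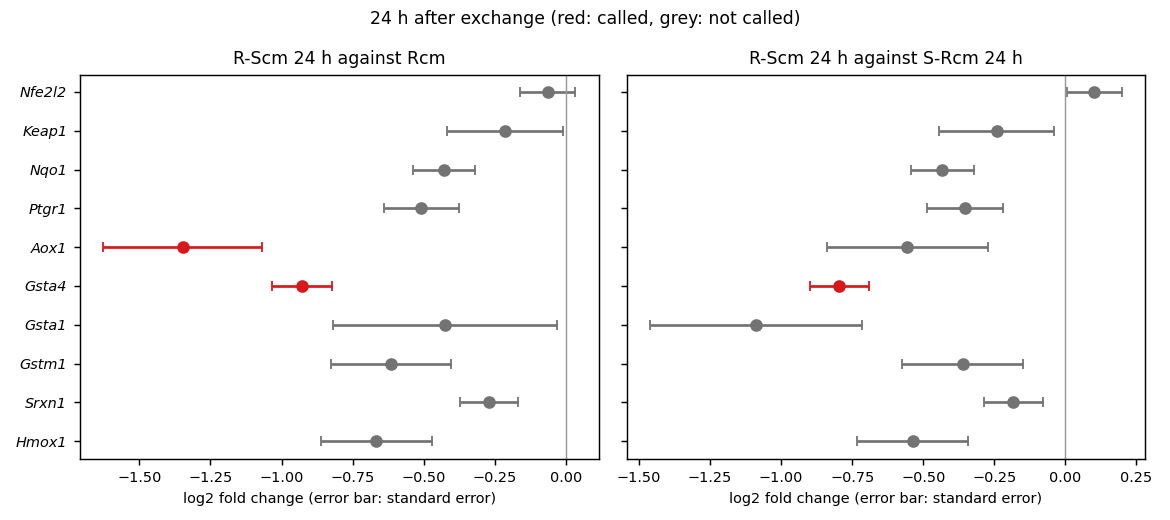
Log2 fold change of each gene with its standard error in R-Scm 24 h against Rcm (left) and against S-Rcm 24 h (right), red for DEGs and grey for the others. Gsta4 is a DEG in both at -0.93 and -0.79, Aox1 on the left only, and Nfe2l2 is near 0 in both.

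Whether the change at 24 h differed between the exchanges was tested as an interaction, the log2 fold change of R-Scm 24 h against Rcm minus that of S-Rcm 24 h against Scm. The Rcm and Scm libraries in this term are also those of the comparisons at 12 h that entered the choice of genes. Gsta4 was the only one of the 10 genes that passed in edgeR's test, at -1.01 (SE 0.147, adjusted p = 0.00173), beside 1.37% of all genes, and 0.819% with a negative value. Aox1 (-1.56, adjusted p = 0.0647), Nqo1 (-0.63, adjusted p = 0.0545), Gstm1 (-1.03, adjusted p = 0.118), Hmox1 (-0.78, adjusted p = 0.217) and Ptgr1 (-0.52, adjusted p = 0.230) did not pass in that test. With DESeq2, Nqo1 (-0.61, adjusted p = 0.0108), Gstm1 (-1.01, adjusted p = 0.0426) and Aox1 (-1.53, adjusted p = 0.0134) passed beside Gsta4. Over all genes, 395 passed with DESeq2 in place of 211. The call of Gsta4 held in all alternatives run. Without R-Scm 24 h replicate 1, Nqo1, Gstm1, Ptgr1 and Aox1 passed as well, while over all genes the number that passed rose from 211 to 761. Without R-Scm 12 h replicate 3, Nqo1 (adjusted p = 0.0306) and Hmox1 (adjusted p = 0.00979) passed beside Gsta4.

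Other genes of the pathway were taken from 5 lists with 93 genes, of which 80 were tested. The lists were chosen with earlier results of these data known. Their counts of DEGs and p values, here and below, are therefore no independent test of a difference at 12 h or later. The shares of all genes beside them carry the same limit. The lists hold regulators of NRF2 (13 genes), other NRF2 targets (22), other glutathione transferases (15 tested of 21), other enzymes of carbonyls and quinones (23 of 28) and the battery of the aryl hydrocarbon receptor, AHR (7 of 9). At 12 h after the change to Rcm, 5 of the 80 genes were DEGs and all were higher, beside 0.858% of all genes and 0.598% that were higher. Among them is Gsta2, whose counts are uncertain as to the copy, since it shares 870 bases with Gsta1 at 97.2% identity. The value of Gsta1 at 12 h entered the choice of genes, and without Gsta2 4 DEGs remain. Positive values were held by 58 of the 80, with a median log2 fold change of 0.25 against 0.019 for all genes.

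The DEG with the smallest adjusted p was Esd, the hydrolase that splits S-formylglutathione in the disposal of formaldehyde. It rose from 153, 166 and 161 CPM in Scm to 286, 268 and 309 CPM in S-Rcm 12 h (log2 0.85, SE 0.101, adjusted p = 0.000393). At 24 h it held 183, 175 and 173 CPM. The call held in all 24 alternatives. Of its transcript of 1117 bases, 847 align to the copy Esd-ps at 97.0% identity, so that reads of Esd can also be split.

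Gsta2, the near-identical neighbour of Gsta1, held 0.588, 0.623 and 0.275 CPM in Scm and 2.74, 2.74 and 2.81 CPM at 12 h (log2 2.45). It passed the threshold and is in the count of 5 DEGs. Because its counts cannot be kept apart from those of Gsta1, its value is given only as a description, without a p. Mgst2, a microsomal transferase, rose from 0.954 to 2.24 CPM (log2 1.24, adjusted p = 0.0462), a call lost in 18 of 24 alternatives. Akr1b3, an aldose reductase, rose from 38.3 to 58.2 CPM (log2 0.61, adjusted p = 0.0353), and Aldh1a7, an aldehyde dehydrogenase, from 4.81 CPM (log2 0.62, adjusted p = 0.0321). Each of the calls of Akr1b3 and Aldh1a7 was lost in 7 of 24 alternatives. The transcript of Akr1b3 also has copies, with 951 of its 1387 bases at 99.7% identity to Gm6644.

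Of the 22 other NRF2 targets, 0 were DEGs in edgeR's test and 0 with DESeq2, while 8 had an unadjusted p under 0.05, 17 were positive and the median was 0.24. The libraries of 12 genes did not overlap, all of them higher in S-Rcm 12 h, beside 14.4% of all genes. Among them, Txnrd1, thioredoxin reductase, held 592, 589 and 607 CPM before and 707, 685 and 698 CPM after 12 h in Rcm (log2 0.23, SE 0.127, adjusted p = 0.449). The subunits of glutamate-cysteine ligase, the first enzyme of glutathione synthesis, had log2 fold changes of 0.25 (Gclm, adjusted p = 0.660) and 0.13 (Gclc, adjusted p = 0.531). Slc7a11, the cystine importer, was at -0.57 (adjusted p = 0.563).

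Of the 13 regulators of NRF2, 0 were DEGs at 12 h in Rcm in edgeR's test and 1 with DESeq2, with 3 at an unadjusted p under 0.05 and a median of -0.10. Bach1, a repressor that competes for the same elements, was at -0.25 (adjusted p = 0.306) and the partner Mafg at -0.081 (adjusted p = 0.777). In the AHR battery, 0 of 7 genes were DEGs in edgeR's test and 0 with DESeq2, with 4 at an unadjusted p under 0.05. Cyp1b1, a monooxygenase under AHR, held 6.79, 6.93 and 7.62 CPM before and 13.8, 18.5 and 13.9 CPM after 12 h in Rcm (log2 1.11, SE 0.378, adjusted p = 0.177), and Ahr itself was at -0.28 (adjusted p = 0.296).

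At 12 h after the change to Scm, 2 of the 80 genes were DEGs, beside 2.74% of all genes, and the median was -0.068. Gsto1, an omega-class transferase that reduces rather than conjugates many of its substrates, rose from 271, 270 and 153 CPM in Rcm to 405, 382 and 464 CPM (log2 0.85, adjusted p = 0.0303), a call lost in 5 of 24 alternatives, with adjusted p from 0.00199 to 0.124 over all of them. Gsto1 was also above the medium left in the other exchange, with 429, 375 and 429 CPM at 12 h against 284, 311 and 176 CPM in Scm. There it was no DEG in edgeR's test (log2 0.68, SE 0.209, adjusted p = 0.134) but was a DEG with DESeq2. Aldh1a7 fell from 14.1, 15 and 14.9 CPM to 9.89, 9.97 and 9.37 CPM, by 0.59 on the log2 scale (adjusted p = 0.0118), a call lost in 4 of 24 alternatives. Slc7a11 was at -1.16 (SE 0.400, adjusted p = 0.126) and was a DEG with DESeq2, Gclm was at 0.45 (adjusted p = 0.279) and Cyp1b1 at 0.52 (adjusted p = 0.508).

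**Figure D4:**
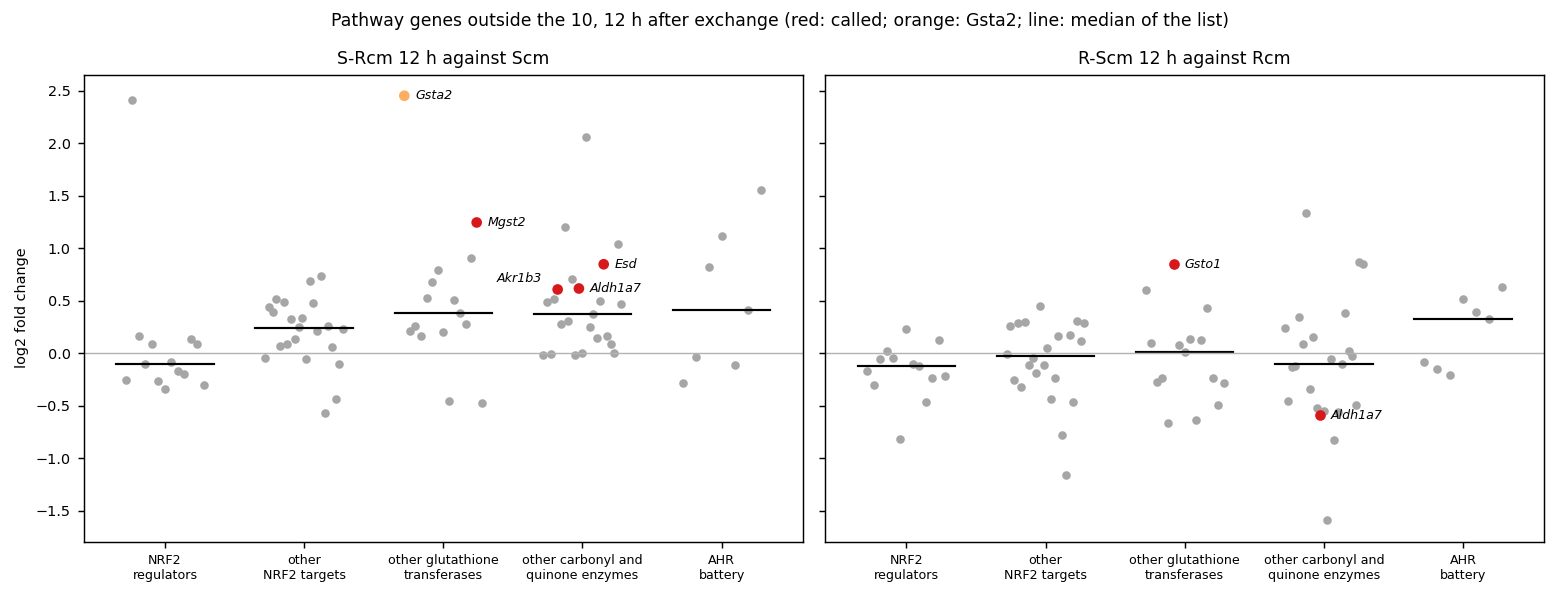
Log2 fold change of the 80 tested genes of the pathway lists, 1 point per gene, at 12 h against the medium left for S-Rcm (left) and R-Scm (right), with DEGs in red and the median of each list as a black line. Gsta2, which passed the threshold in S-Rcm, is orange there since its value is given only as a description. In S-Rcm the medians are 0.24 for the other NRF2 targets, 0.39 for the other glutathione transferases, 0.37 for the carbonyl and quinone enzymes, 0.41 for the AHR battery and -0.10 for the regulators.

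In steady culture, 5 of the 80 genes were DEGs between Rcm and Scm, beside 2.3% of all genes, and 3 of them were enzymes of carbonyls that were higher in Rcm. Aldh1a1, the aldehyde dehydrogenase of retinal, was higher in Rcm, with 10.8, 14.6 and 12.1 CPM against 2.89, 3.32 and 3.02 CPM (log2 2.03, adjusted p = 0.000196). Aldh1a7 was higher in Rcm as well (log2 1.61, adjusted p = 6.46e-06), from 4.17, 4.99 and 5.29 CPM in Scm, and was at 9.81, 11 and 11.6 CPM in S-Rcm 24 h, where it was a DEG (log2 1.17, adjusted p = 0.000683). These 2 genes share 430 bases at 93.0% identity. Cbr2, a carbonyl reductase, was at 7.16, 7.62 and 8.17 CPM in Scm, at 19.8, 21.7 and 21 CPM in Rcm and at 19.4, 14.7 and 19.4 CPM in S-Rcm 24 h (log2 1.45, adjusted p = 0.000916 for Rcm and 1.22, adjusted p = 0.0165 for S-Rcm 24 h, each against Scm). The call of Cbr2 in S-Rcm 24 h was lost in 5 of 24 alternatives. Aldh1a7 and Cbr2 were the 2 DEGs among the 80 genes in S-Rcm 24 h, beside 0.338% of all genes.

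The other DEGs in steady culture were Gstm2, higher in Rcm by 0.60 (adjusted p = 0.033, lost in 7 of 24 alternatives), and Sqstm1, the autophagy receptor p62 that can sequester KEAP1, which was lower in Rcm with 304, 313 and 242 CPM against 439, 448 and 406 CPM (log2 -0.59, adjusted p = 0.00914, lost in 3 of 24 alternatives). Sqstm1 shares 580 exon bases with the antisense gene Mrnip. At 24 h after the change to Scm, 0 of the 80 genes were DEGs against Rcm in edgeR's test and 0 with DESeq2, beside 0.377% of all genes, with 16 at an unadjusted p under 0.05. Between R-Scm 24 h and S-Rcm 24 h, 0 were DEGs in edgeR's test and 1 with DESeq2, beside 0.065% of all genes, with 12 at an unadjusted p under 0.05. In the interaction at 24 h, Cbr2 (-1.78, adjusted p = 0.00404) and Aldh1a7 (-1.20, adjusted p = 0.00221) passed, 2 of the 80 genes beside 1.37% of all genes, and both calls held in all 24 alternatives. In R-Scm 24 h Aldh1a7 held 14.4 ± 1.39 CPM (SD, n = 3), and its libraries overlapped those of Rcm.

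Patterns over the 18 libraries were compared by Pearson's r of log2 CPM, as a description. The libraries fall into 6 groups, so that r mostly follows the group means and libraries of a group are not separate points. Among the 10 genes, Nqo1 and Ptgr1 were most alike (r = 0.967), and the pairs among Nqo1, Ptgr1, Gsta4, Gsta1 and Srxn1 ran from 0.834 to 0.967. Nfe2l2 had r from -0.529 to 0.00786 with the other 9, and Hmox1 stood at 0.353 with Nqo1.

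Of all genes tested, those with the pattern nearest to Ptgr1 were Nqo1 (r = 0.967), Calr (0.953) and Esd (0.938). Gsta4 was nearest to Nqo1 (0.919), G6pdx (0.914) and Ptgr1 (0.912). For Gsta1 they were Pex11a (0.937), its copy Gm3776 (0.901) and Gsta4 (0.884), and for Aox1 they were Fyco1 (0.885), Erbb3 (0.875) and Adh7 (0.874). The neighbours of Aox1 thus included none of the other 9 genes, whereas those of Ptgr1 and Gsta4 did.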

How the data were processed

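Reads per gene were measured in 18 libraries of MEFs in 6 groups of 3, taken from the titles. The authors extracted RNA with an RNeasy kit, sequenced paired ends on a NovaSeq instrument, aligned reads to GRCm38 with HISAT2 and deposited a raw count for each of 55487 genes, without normalization. The counting tool, its use of strand and of reads with several alignments are not given in the sources used here. The table had 0 columns without a sample.

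Genes were filtered by edgeR's filterByExpr, which left 15381 and removed 40106, scaled with TMM factors (0.963 to 1.03) and fitted with a robust quasi-likelihood model of the 6 groups (12 residual degrees of freedom, biological coefficient of variation 0.173). Log2 CPM used a prior count of 2. Replicates differed beyond counting error (chi-square per degree of freedom 9.33 to 41.1), and reads carry no molecular identifiers. Exact permutation of 3 against 3 libraries cannot give a p below 0.1. The labels name no batch. The script was tested on simulated counts (seed 1). Copies were sought with blastn at 100 or more aligned bases and 90% identity or more. Positions came from GENCODE M21, where all 10 genes and 128 of 128 listed genes matched.

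The 10 genes and the lists were chosen with earlier results of these data known. Named were the 10 genes, every listed gene that was a DEG, and Gclm, Gclc, Txnrd1, Slc7a11, Bach1, Mafg, Ahr, Cyp1b1 and Gsta2. For likeness, the 3 nearest genes were named for the 4 of the 10 with the widest range of group means. Alternatives were a replicate block by the numbers of the titles or, added after seeing the data, of the columns, RLE scaling, DESeq2, the adjusted p alone, the compared groups alone, each library left out, and either no filter or one of 10 counts in each library. Software was edgeR 4.0.16 and DESeq2 1.42.0 in R 4.3.3 with limma 3.58.1, blastn 2.17.0, and matplotlib 3.10.9 in Python 3.11.15.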

Additional observations from a re-analysis of the deposited data

Results flagged for a closer look

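In the interaction at 24 h, 1 of the 10 genes and 2 of the 80 pathway genes differed between the exchanges, beside 1.37% of all genes, in edgeR's quasi-likelihood test with Benjamini-Hochberg adjustment. Its Rcm and Scm libraries are also those of the comparisons at 12 h that entered the choice of the 10 genes. The lists of pathway genes were chosen with earlier results of these data known, so that their count is no independent test. Cbr2 had an interaction of -1.78 on the log2 scale (adjusted p = 0.00404), with libraries above Scm in S-Rcm 24 h and 2 of 3 libraries well below Rcm in R-Scm 24 h. Gsta4 had -1.01 (adjusted p = 0.00173), and Aldh1a7 had -1.20 (adjusted p = 0.00221). Aldh1a7 was level between R-Scm 24 h and Rcm, with 14.4 ± 1.39 against 14.7 ± 0.482 CPM (SD, n = 3). Its libraries in S-Rcm 24 h were all above those of Scm.

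At 12 h, 2 of the 10 genes were on opposite sides of the medium left in all libraries of each exchange. The choice of the 10 genes used these contrasts. Against the medium left, libraries did not overlap for 23.4% of all genes in R-Scm 12 h and for 26.4% in S-Rcm 12 h. The share of all genes on opposite sides was not computed, so that nothing is read from this count. Gstm1 had log2 fold changes of -0.35 in R-Scm and 0.59 in S-Rcm, and Aox1 had -1.25 and 1.18. Opposite sides in all libraries were also seen for 6 of the 80 pathway genes (Adh7, Aldh1a7, Aldh3a1, Gsr, Pgd and Slc48a1), a count with the same limit. Of these, Aldh1a7 was a DEG in both exchanges, at -0.59 in R-Scm and 0.62 in S-Rcm. The difference between the exchanges at 12 h was not tested for any of these genes.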

How the results depend on the processing

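Counts of DEGs are given here for the 10 genes first and then for the 80 pathway genes. Those of the pathway genes in S-Rcm 12 h include Gsta2 wherever it passed the threshold. With DESeq2, 1 of the 10 genes was a DEG between Rcm and Scm instead of 0 and 4 instead of 1 in the interaction, and of the pathway genes 8 instead of 5 between Rcm and Scm, 4 instead of 2 in R-Scm 12 h, 8 instead of 5 in S-Rcm 12 h and 1 instead of 0 between the exchanges at 24 h. In fits of the compared groups alone, 0 instead of 2 of the 10 genes were DEGs in R-Scm 24 h against Rcm, 0 instead of 1 against S-Rcm 24 h and 2 instead of 1 in the interaction, and 0 instead of 2 pathway genes in R-Scm 12 h. With no filter, 1 pathway gene in R-Scm 12 h and 3 in S-Rcm 12 h were DEGs, and with the adjusted p alone 7 were in R-Scm 12 h. The median over the 10 genes in S-Rcm 12 h was 0.582 instead of 0.887 where each library had to hold 10 counts, since Gsta1 then dropped out.

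Leaving out each library in turn, the counts over the 10 genes ran from 0 to 2 between Rcm and Scm, from 1 to 4 in R-Scm 24 h against Rcm, from 0 to 2 against S-Rcm 24 h, and from 1 to 5 in the interaction, the highest of the last 3 without R-Scm 24 h replicate 1. Those over the pathway genes ran from 3 to 7 between Rcm and Scm, 0 to 4 in R-Scm 12 h, 1 to 6 in S-Rcm 12 h, 0 to 4 in R-Scm 24 h, 1 to 2 in S-Rcm 24 h, 0 to 1 between the exchanges and 2 to 7 in the interaction. In all genes tested, the 58 DEGs of R-Scm 24 h against Rcm became 501 without R-Scm 24 h replicate 1, 14 without R-Scm 24 h replicate 3, 164 with DESeq2 and 4 with the compared groups alone. The 10 between the exchanges at 24 h became 125 without R-Scm 24 h replicate 1, 52 with DESeq2 and 0 without S-Rcm 24 h replicate 3. The 211 of the interaction became 761 without R-Scm 24 h replicate 1, 395 with DESeq2 and 120 without Rcm replicate 2.

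Signs turned only for results smaller in size than their standard error. The log2 fold change of Nfe2l2 between Rcm and Scm was -0.00068 with RLE scaling, -0.00432 without a filter, -0.000703 with these groups alone and -0.00242 with DESeq2. Without single libraries it ran from -0.0475 to 0.0802, and from -0.139 to 0.0382 in R-Scm 24 h. Keap1 ran from -0.233 to 0.0268 between Rcm and Scm, -0.134 to 0.143 in S-Rcm 24 h and -0.361 to 0.00454 in the interaction. Srxn1 ran from -0.0287 to 0.08 between Rcm and Scm and from -0.122 to 0.0824 in S-Rcm 24 h, Ptgr1 from -0.0262 to 0.0491 in S-Rcm 24 h, and Gsta1 from -0.137 to 0.474 in the interaction. The causes were not tested. Of 2055 values of single genes under the alternatives, 1935 kept direction and side of the threshold.

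Replicate numbers did not pair the libraries over the groups as a whole. By the numbers in the sample titles, of 45 same-numbered pairs, 11 correlated over 0.1 (range -0.196 to 0.346) and in 15 the library correlated best with its own number. Between Rcm and R-Scm 24 h each Rcm library correlated best with its own number (0.0845, 0.159 and 0.346). With a replicate block, the counts over the 10 genes stayed at 0, 2, 0, 1 and 1, and those over the pathway genes were 4 in place of 5 between Rcm and Scm and in S-Rcm 12 h, where Gstm2 (adjusted p = 0.0522) and Mgst2 (adjusted p = 0.0601) missed the threshold. The names of the deposited columns number 3 of the groups 1, 3 and 4. By these numbers, of 36 pairs 7 correlated over 0.1 (range -0.208 to 0.165) and in 9 the library correlated best with its own number. A block by column number, added after seeing the data, left 1 of the 10 genes a DEG in R-Scm 24 h against Rcm (Aox1 missed, adjusted p = 0.141) and 0 against S-Rcm 24 h (Gsta4 missed, adjusted p = 0.064), and of the pathway genes 1 after 12 h and 0 after 24 h in R-Scm, and 3 after 12 h and 1 after 24 h in S-Rcm. It kept the 3 calls of the interaction. Depth limits genes of few reads, such as Gsta1 with 5 to 100 counts per library and Mgst2 with 11 to 44.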
